A study of Oryza sativa Japonica Group with 10 samples.

Results

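OsMGD1 (LOC4347099), OsMGD2 (LOC4345212) and OsMGD3 (LOC4331045) are the rice genes for monogalactosyldiacylglycerol synthases. They were chosen by name, and all of their probe sets that stand for a single gene were taken, which is 1 probe set for each of the 3 genes, of 17905 genes with such a probe set on the array. RNA came from one-week-old seedlings of the cultivar Zhonghua 10 and was measured on 10 Affymetrix arrays, with nothing in the labels on which organs were taken. The control seedlings had sufficient phosphate, and the other 4 groups had spent 6, 24, 48 or 72 h in solution short of it. Each of the 5 groups had 2 arrays, which the labels call biological replicates from independent plants. The labels give neither a harvest time for the control nor a group with sufficient phosphate at the later times, so seedling age and time of day cannot be told apart from the phosphate supply wherever a low-phosphate group is set against the control. All such comparisons share the same 2 control arrays.

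Monogalactosyldiacylglycerol synthases move galactose from UDP-galactose onto diacylglycerol. Their product is the main lipid of the thylakoid membranes of chloroplasts and the substrate for digalactosyldiacylglycerol. In Arabidopsis, plants short of phosphate break down phospholipids and put digalactosyldiacylglycerol and sulfolipid in their place, and the synthases MGD2 and MGD3 of that species are induced then, while MGD1 makes most of the galactolipid of the chloroplast. The numbers in the rice names are not a statement that a gene has the role of the Arabidopsis gene with the same number.

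OsMGD1 and OsMGD3 changed in opposite directions at 24 h, and the course of OsMGD2 was not resolved. OsMGD1 rose at all 4 times and was highest at 24 h, at 2.36-fold the control. OsMGD3 fell at 24 h, to 0.673 of the control, and rose by smaller amounts at 48 and 72 h. Both later rises of OsMGD3 and the 72 h rise of OsMGD1 were lost under some alternative settings, given below. OsMGD2 was dim on every array and no change passed the test. Adjusted p under 0.05 in limma, with Benjamini-Hochberg adjustment over all 34355 probe sets tested, counted as a change. Changes are given as differences between mean log2 signals with the SE, from n = 2 arrays in each group. At 6 h 1 of the 3 genes changed, where 36.2% of all probe sets tested did, and at 24, 48 and 72 h 2 of the 3 did, against 39.8%, 31.9% and 39.4%. Split by direction, 19%, 20.6%, 19.4% and 21.9% of all probe sets rose at the successive times and 17.2%, 19.2%, 12.5% and 17.6% fell. With changes so common on these arrays, 1 or 2 of 3 is no result about the genes as a family.

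OsMGD1 had MAS5 signals of 978.5 and 1036.5 on the control arrays. After 6 h they were 1977.5 and 1994.7, after 24 h 2550.2 and 2216.0, after 48 h 1655.4 and 1620.9, and after 72 h 1260.2 and 1381.0. Every low-phosphate array lay above both control arrays. Groups that do not overlap with the control were common on these arrays, at 67.2%, 66%, 66.6% and 70.8% of probe sets tested at the 4 times.

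**Figure D1:**
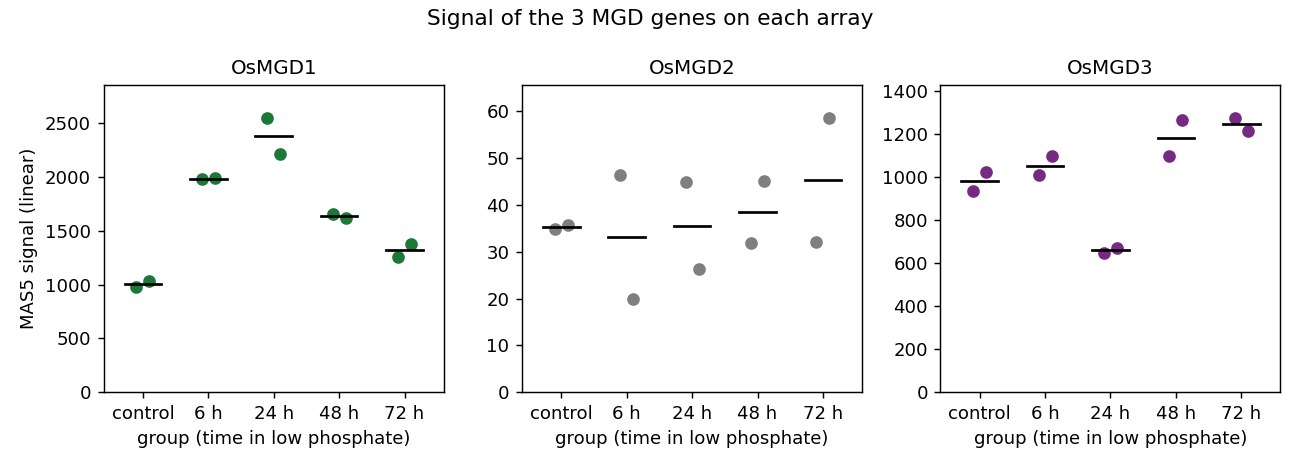
MAS5 signal (linear scale, from 0) of OsMGD1, OsMGD2 and OsMGD3 by group. Points are single arrays and bars the mean of 2 arrays. OsMGD1 runs from 978.5 on a control array to 2550.2 at 24 h, OsMGD3 is lowest at 24 h (648.1 and 668.5), and the arrays of OsMGD2 overlap between all groups.

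After 6 h the OsMGD1 level was 0.98 ± 0.08 above the control (adjusted p = 1.84e-06), and after 24 h it was 1.24 ± 0.08 above it (adjusted p = 1.51e-07). The excess was still 0.70 ± 0.08 after 48 h (adjusted p = 4.48e-05), and it was 0.39 ± 0.08 after 72 h (adjusted p = 0.00263). As folds, in order of time, these were 1.97 (95% interval 1.74 to 2.23), 2.36 (2.08 to 2.68), 1.63 (1.44 to 1.84) and 1.31 (1.16 to 1.48). In the order of all changes at that time, from the most lowered to the most raised, OsMGD1 stood at percentiles 88.9, 91.6, 83.8 and 62.9 in order of time. Its rise was thus among the larger ones on the array at 24 h and an ordinary one at 72 h. The probe sets that rose at all 4 times, as OsMGD1 did, were 2009, or 5.85% of those tested. The series text calls a gene inducible from a ratio of 2 upward, and OsMGD1 passed that line at 24 h, with a ratio of mean signals of 2.37, while its ratio at 6 h was 1.97. A ratio of at least 2 was reached by 9.49%, 10.9%, 7.88% and 13.7% of probe sets at the successive times.

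From low to high, the OsMGD1 levels ran control, 72 h, 48 h, 6 h and 24 h. All 4 neighbouring steps in that order passed the test, as did 31.2% of probe sets between 48 and 72 h, 30.4% between 6 and 48 h and 39.3% between 6 and 24 h. The step from the control to 72 h is the 0.39 given above. The level at 48 h was 0.31 ± 0.08 above that at 72 h (adjusted p = 0.0127), the level at 6 h was 0.28 ± 0.08 above that at 48 h (adjusted p = 0.0229), and the level at 24 h was 0.26 ± 0.08 above that at 6 h (adjusted p = 0.0255). These 3 small steps were fragile. The step between 6 and 24 h ended without low Pi 24 h replicate 1 (0.16, adjusted p = 0.188). The step between 48 and 72 h grew to -0.83 with centring on the median of all probe sets (adjusted p = 1.77e-05). Each of the 3 ended without an intensity trend and under some other settings, as listed with the dependences on processing. The fall from 24 to 72 h, of -0.85 ± 0.08 (adjusted p = 4.48e-06, where 43.3% of probe sets passed), spans the later course. Over all 8 low-phosphate arrays, with the 4 times weighted equally, OsMGD1 was 0.83 ± 0.07 above the control (adjusted p = 9.85e-07, where 37.6% of probe sets passed).

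At 6, 24 and 48 h the OsMGD1 rise passed under all 20 alternatives that were run, with values of 0.91 to 1.02, 1.14 to 1.34 and 0.53 to 0.74. At 72 h it passed under 18 of 19. The exception was centring each array on the median of all its probe sets, which gave -0.11 (adjusted p = 0.431).

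OsMGD3 had control signals of 935.4 and 1021.6. After 6 h they were 1008.9 and 1095.0, after 24 h 648.1 and 668.5, after 48 h 1098.2 and 1264.1, and after 72 h 1273.9 and 1213.9. The 24 h arrays lay below all others, the 48 and 72 h arrays above both control arrays, and the 6 h arrays overlapped with the control. Its difference from the control was 0.10 ± 0.09 after 6 h (adjusted p = 0.448) and -0.57 ± 0.09 after 24 h (adjusted p = 3.98e-04). The later rises were 0.27 ± 0.09 for 48 h (adjusted p = 0.0488) and 0.35 ± 0.09 for 72 h (adjusted p = 0.0121).

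The 24 h fall of OsMGD3 passed under all 20 alternatives, with values of -0.67 to -0.51. It stood at percentile 21.5 of all changes at 24 h, and the rises at 48 and 72 h at percentiles 61.6 and 60.6. No array of OsMGD3 reached a ratio of 2 or more against the control mean. The 48 h rise was at the threshold and passed under 6 of 20 alternatives, and without low Pi 48 h replicate 2 it was 0.17 (adjusted p = 0.350). The 72 h rise passed under 16 of 19 alternatives. Leaving out control replicate 1 ended it (0.28, adjusted p = 0.0896), as did leaving out the first of the 72 h arrays (0.31, adjusted p = 0.070), and centring each array on the median of all its probe sets turned it to -0.15 (adjusted p = 0.271).

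In the order of its levels, OsMGD3 ran 24 h, control, 6 h, 48 h and 72 h. Only the lowest step, from 24 h to the control, passed among the 4 neighbouring steps. The control and 6 h (0.10 ± 0.09), 6 and 48 h (0.16 ± 0.09, adjusted p = 0.237) and 48 and 72 h (0.08 ± 0.09, adjusted p = 0.581) did not differ beyond their spread. The recovery from 24 to 48 h was the largest step of the gene between successive times, at 0.84 ± 0.09 (adjusted p = 2.13e-05, where 35.8% of probe sets passed), and the step from 6 to 24 h was -0.68 ± 0.09 (adjusted p = 1.05e-04). With the 4 times weighted equally the low-phosphate level differed from the control by 0.04 ± 0.07 (adjusted p = 0.746), since the fall at 24 h and the later rises have opposite signs.

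**Figure D2:**
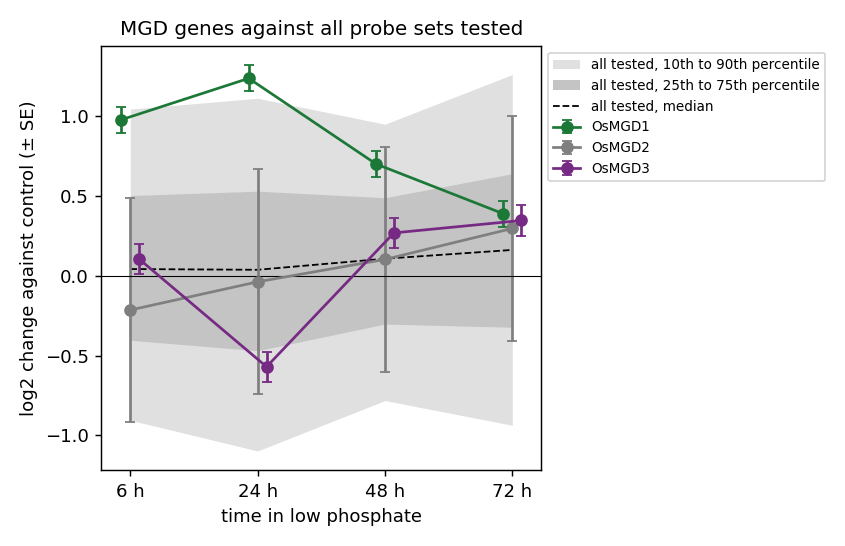
Log2 change against the control (± SE, n = 2 arrays in each group) of the 3 genes at the 4 times, over the 10th to 90th and 25th to 75th percentiles and the median of the changes of all 34355 probe sets tested. OsMGD1 lies above the 75th percentile band at 6, 24 and 48 h and within it at 72 h, and OsMGD3 lies below 0 at 24 h only.

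OsMGD2 had signals of 34.8 and 35.8 on the control arrays. Those after 6 h were 46.5 and 19.9, after 24 h 44.8 and 26.4, after 48 h 31.8 and 45.2, and after 72 h 32.1 and 58.6. A probe set was tested above a signal of 23.9, taken as the mean log2 signal over the 10 arrays, and OsMGD2 was not far above that level. All groups overlapped, and on the linear signal scale the 2 arrays of each low-phosphate group differed by more than the means of the groups did. The changes were -0.21, -0.04, 0.10 and 0.30 at the 4 times, each ± 0.70, with adjusted p of 0.856, 0.975, 0.937 and 0.770.

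The 95% intervals for OsMGD2 were wide. They ran from 0.296 to 2.51-fold at 6 h, from 0.334 to 2.84-fold at 24 h, from 0.369 to 3.13-fold at 48 h and from 0.422 to 3.58-fold at 72 h. A rise of the size of OsMGD1 at 24 h lies within all 4, so these arrays do not separate a flat course of OsMGD2 from one like that of OsMGD1. No 2 neighbouring levels of OsMGD2 differed beyond their spread, with adjusted p between 0.865 and 0.975.

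OsMGD1 and OsMGD3 moved apart most at 24 h. Taken within each array and relative to the control, the log2 change of OsMGD1 exceeded that of OsMGD3 by 0.82 and 0.93 on the 6 h arrays and by 1.69 and 1.93 on the 24 h arrays. On the 48 h arrays the excess was 0.32 and 0.55, and on the 72 h arrays -0.06 and 0.14. In these values the excess was smallest at 72 h, on the arrays that stood apart from the rest in ways described below. With all 8 low-phosphate arrays against the 2 control arrays, the change of OsMGD1 less that of OsMGD3 was 0.79 (exact two-sided permutation test over 45 splits, p = 0.156, adjusted p = 0.233 over 3 pairs of genes). OsMGD1 less OsMGD2 gave the same size, 0.79 (exact permutation p = 0.156, adjusted p = 0.233), and OsMGD2 less OsMGD3 gave -0.00057 (exact permutation p = 1). The smallest p this test can give is 0.0222. For a single time, with 2 arrays on each side, the permutation test cannot reach 0.05, and no test of the difference at 24 h alone was run.

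Arrays of 72 h stood apart from the rest in ways that touch these genes. The ratio of 3′ to 5′ signal over 4 rice control transcripts moved by a median of 2.82 on the log2 scale at 72 h. At the earlier times the moves were 0.99, -0.22 and 0.26. Over 4 bacterial control transcripts it moved by 0.72, -0.27, 0.21 and 2.37 in order of time. Array medians ran from 47.6 to 69.3, and centring on them moved the median change of all probe sets tested at 72 h from 0.16 to -0.34, a shift of -0.50. The share of rises among all calls at 72 h went from 55.5% to 12.6%, and at 24 h it went from 51.8% to 42.8%. Under this centring the 72 h rises of OsMGD1 and OsMGD3 both changed sign, to -0.11 and -0.15. Centring on the probe sets tested alone, chosen after the values were seen, gave 0.36 (adjusted p = 0.00632) for OsMGD1 and 0.32 (adjusted p = 0.0184) for OsMGD3 at 72 h. Single control transcripts moved further than these medians, such as the cyclophilin ratio by -0.61 at 24 h and the bacterial thr ratio by 2.13 at 48 h. With the 72 h group left out of the fit, OsMGD1 at 6, 24 and 48 h and OsMGD3 at 24 h passed as before, and OsMGD3 at 48 h did not (adjusted p = 0.0590). The part of RNA quality in these results was not tested.

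**Figure D3:**
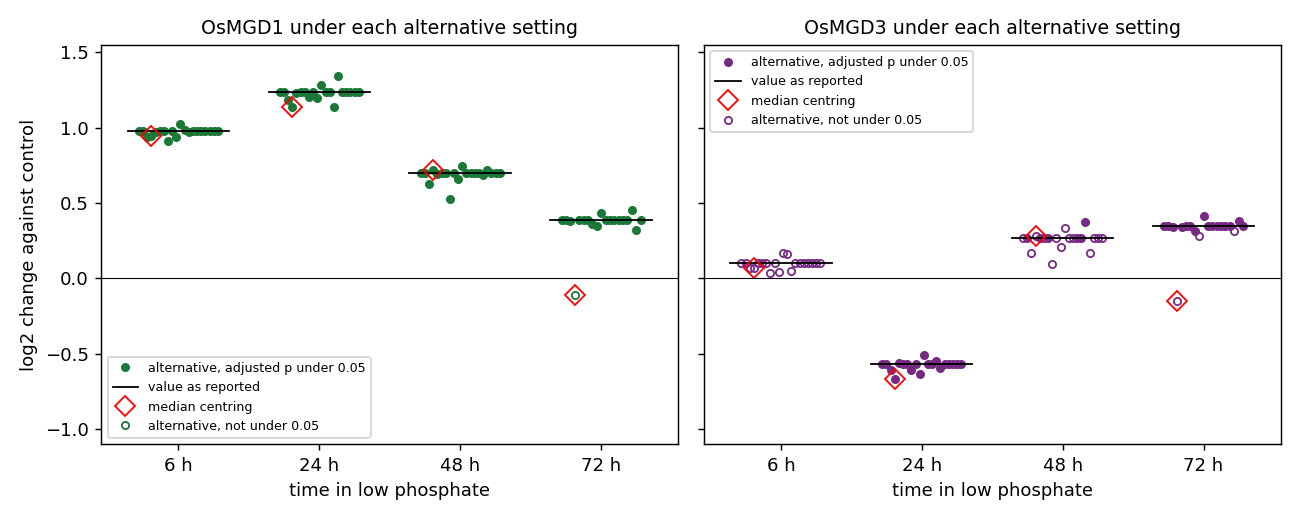
Log2 change against the control of OsMGD1 and OsMGD3 at the 4 times under each alternative setting. Filled points passed the test, open points did not, horizontal lines are the values as reported, and diamonds mark centring on the median of all probe sets. The 72 h diamonds lie at -0.11 and -0.15, on the other side of 0 from the values as reported, and the OsMGD3 points at 24 h stay between -0.67 and -0.51.

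In such bulk samples, fewer cells of a type and less RNA per cell cannot be told apart, and marker genes of leaf, root and seed changed with the groups. None of their probe sets is listed at 0. Signals summed over 6 leaf markers ran from 83602 to 84278 in the control. In order of time the sums were 90718 to 91300, 62148 to 63028, 69851 to 73692 and 65873 to 67988. Rises in the leaf list numbered 4, 3, 1 and 2 at the successive times, and falls 1, 2, 2 and 3. As background for this and the other marker lists, 19%, 20.6%, 19.4% and 21.9% of all probe sets tested rose at these times. Falls made up 17.2%, 19.2%, 12.5% and 17.6% of all probe sets tested. Over 7 root markers the sums were 30109 to 30819 in the control and then 31023 to 31674, 28841 to 30153, 36827 to 37304 and 41786 to 42115, with 3, 3, 4 and 5 rises and 3, 1, 0 and 0 falls. Over 8 markers of the seed remainder the sums were 6254 to 6646 in the control and between 1615 and 3410 at the 4 times, with no rise and 4, 3, 3 and 1 falls among 5 tested. The root sums, like OsMGD3, were lowest at 24 h, where they overlapped with the control, and highest at 72 h. At 24 h Lsi1, the brightest of the 7 root markers, was the 1 that fell, by -1.26 ± 0.04. The other way went 3 markers that rose, and the median change of the list was 0.67, so this sum does not stand for the list either. The leaf sums were lowest at 24 h, where OsMGD1 was highest. That low sum rests on 1 bright gene, CAB2R, with 37178.5 and 37972.5 in the control and 4012.4 and 4037.8 at 24 h. Of the 6 leaf markers 3 rose and 2 fell at 24 h, so the sum does not stand for the list. The part of organ makeup in the changes of the 3 genes was not tested.

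Other genes of the lipid pathways were matched by name, and only a few had a match. The galactolipid and sulfolipid list had 14 names, of which the 3 MGD genes were matched, so digalactosyldiacylglycerol and sulfolipid synthases were not analysed here. Of the list of phospholipid breakdown, the phospholipase D genes PLD1 and PLD2 were measured. Phospholipase D cuts the head group from phospholipids and leaves phosphatidic acid. PLD1 had signals of 21656.3 and 20343.9 in the control. After 6 h they were 12234 and 11943.4, after 24 h 17674.4 and 16745.8, after 48 h 15295.6 and 15077.8, and after 72 h 12019.2 and 12096.5. It fell at every time, by -0.80, -0.29, -0.47 and -0.80, each ± 0.04, the largest adjusted p being 2.29e-04 at 24 h. The PLD1 fall at 48 h ended with quantile normalization (-0.099, adjusted p = 0.0819). PLD2 was lower after 6 h, by -0.40 ± 0.07 (adjusted p = 8.88e-04), and higher after 24 h, by 0.27 ± 0.07 (adjusted p = 0.0114), and its values at 48 and 72 h, 0.06 and 0.12, did not pass. The PLD2 rise at 24 h ended with centring on the median of all probe sets (adjusted p = 0.193) and without control replicate 1 (adjusted p = 0.0664).

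The list of fatty acid desaturation and phospholipid synthesis had 2 measured members. OsSSI2, a stearoyl-acyl carrier protein desaturase that puts the first double bond into fatty acids in the plastid, was, like OsMGD1, raised at all 4 times and highest at 24 h. Its signals were 3860 and 3568.4 in the control. After 6 h they were 6092.6 and 6274.5, after 24 h 8974.2 and 9241.8, after 48 h 5765.4 and 5820.9, and after 72 h 5829.5 and 5865.1. OsSSI2 rose by 0.74, 1.30, 0.64 and 0.66 at the 4 times, each ± 0.05, with the largest adjusted p, 1.86e-06, at 48 h. Its 72 h rise ended with centring on the median of all probe sets (0.16, adjusted p = 0.102). The other member, OsPSS2, changed by -0.62 ± 0.22 at 24 h (adjusted p = 0.0411), which ended under 8 alternatives. Among them were leaving out control replicate 2 (-0.39, adjusted p = 0.282), leaving out low Pi 24 h replicate 2 (-0.40, adjusted p = 0.247) and the replicate block (adjusted p = 0.0523).

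Thylakoid and light-harvesting genes, whose proteins sit in or serve the membranes that galactolipids build, changed in both directions. Of 12 tested members, 9, 6, 5 and 4 rose at the successive times and 1, 4, 2 and 6 fell. Of all probe sets tested, 19%, 20.6%, 19.4% and 21.9% rose at these times and 17.2%, 19.2%, 12.5% and 17.6% fell. The median changes of the list were 0.57, 0.53, 0.21 and -0.35, beside 0.04, 0.04, 0.11 and 0.16 over all probe sets tested. OsGLK1, a transcription factor for chloroplast development, had signals of 435.5 and 390.9 in the control and 1180.3 and 1322.8 at 24 h. It rose by 1.14, 1.60, 0.52 and 0.78 at the successive times, each ± 0.10, and the 72 h rise ended with centring on the median of all probe sets (adjusted p = 0.0620). CHLH, a subunit of the magnesium chelatase of chlorophyll synthesis, was 1.92 ± 0.07 above the control after 24 h and 0.91 ± 0.07 above it after 48 h. After 72 h it was below the control, at -0.90 ± 0.07. PSB28, a photosystem II protein, rose by 1.27 ± 0.08 at 6 h and 1.75 ± 0.08 at 24 h.

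The light-harvesting gene CAB2R went the other way at 24 h, from 37178.5 and 37972.5 in the control to 4012.4 and 4037.8, a change of -3.22 ± 0.05 (adjusted p = 9.09e-13). CAB2R was also lower at 72 h, by -0.96 ± 0.05, and at 48 h its -0.49 ± 0.05 became 0.053 with quantile normalization. OsGLK1, CHLH and PSB28 were high at 24 h with OsMGD1, and CAB2R was low at 24 h with OsMGD3. CAB2R was not alone, since 6 of the 12 tested members rose at 24 h and 4 fell. RCABP89 changed by -0.57 ± 0.04 at 24 h (adjusted p = 3.99e-07). The signals of RCABP69 went from 5543.8 and 5783.8 in the control to 3733.3 and 3693.7 at 24 h. CHLD, another subunit of the chelatase, rose by 1.02 ± 0.12 at 6 h and 0.82 ± 0.12 at 48 h. OsPORB, a protochlorophyllide reductase, rose by 0.87 ± 0.09 after 6 h and was below the control after 72 h, at -1.29 ± 0.09. At 24 h its signals were 1210.3 and 1413.4, against 2529.7 and 2798.3 in the control. CHLI, the remaining subunit, had signals of 1.7 and 16.2 in the control, below the level of 23.9 set for testing, and 115.6 and 49.1 at 72 h. It is 1 of the 4 rises counted at 72 h, a call that ended without control replicate 1 (adjusted p = 0.187), and no fold is given against so dim a control. OsGLK1 and CAB2R also stand in the leaf marker list.

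**Figure D4:**
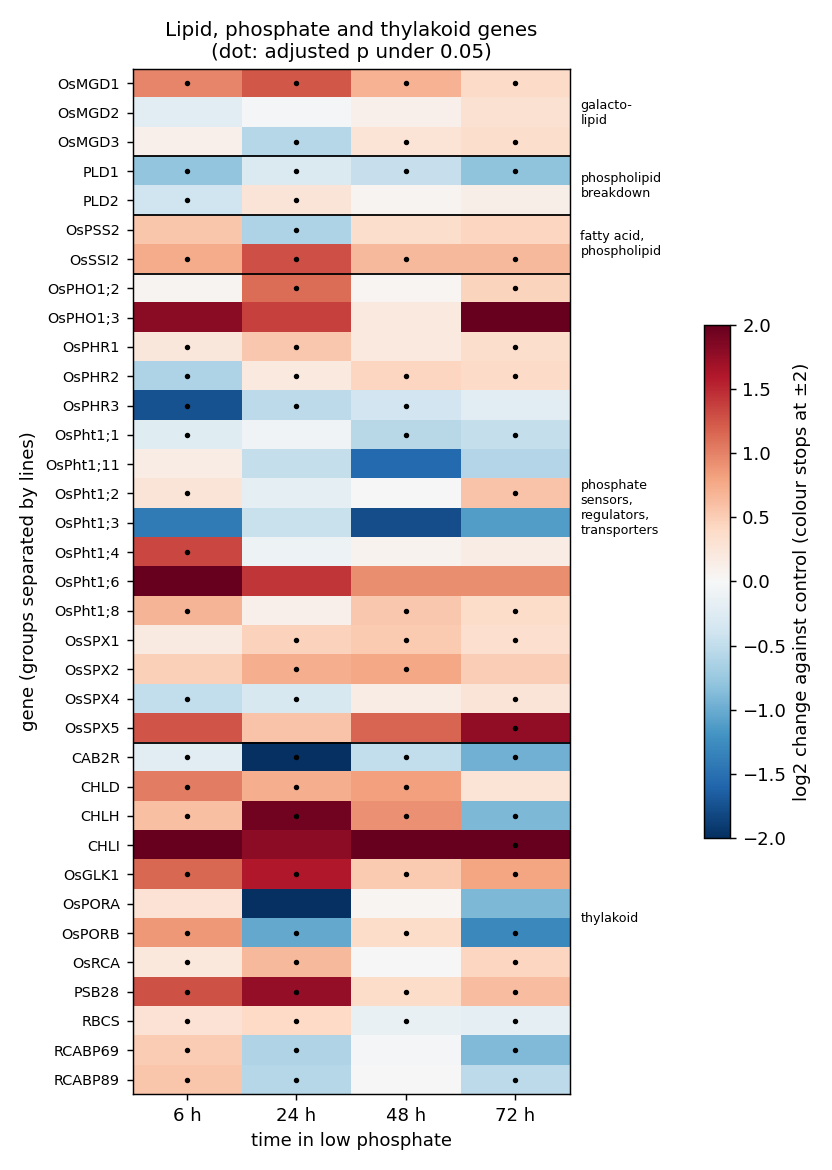
Log2 change against the control (colour, stopping at 2 in either direction) of the MGD genes and of the tested members of the lists of phospholipid breakdown, fatty acid and phospholipid synthesis, phosphate sensors, regulators and transporters, and thylakoid proteins, at the 4 times. Dots mark adjusted p under 0.05. OsMGD1 and OsSSI2 are raised at all 4 times and PLD1 is lowered at all 4.

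Phosphate sensors, regulators and transporters were looked at as the wider setting. Of 16 tested members, 4, 5, 4 and 8 rose at the successive times and 4, 2, 2 and 1 fell. Over all probe sets tested, 19%, 20.6%, 19.4% and 21.9% rose and 17.2%, 19.2%, 12.5% and 17.6% fell. The list's median changes were 0.20, 0.15, 0.16 and 0.36, beside 0.04, 0.04, 0.11 and 0.16 over all probe sets tested. Whether the list as a whole responded was not tested. OsSPX1, an SPX-domain phosphate sensor and a standard marker of phosphate starvation, had signals of 864.4 and 798.2 in the control and 1206.6 and 1173.5 at 48 h, where its change was 0.52 ± 0.12 (adjusted p = 0.00526). OsSPX1 passed at 3 of the 4 times. OsPHO1;2, a phosphate exporter, had signals of 2036.9 and 1968.4 in the control and 4427.9 and 4216.2 at 24 h, a rise of 1.11 ± 0.06 (adjusted p = 3.96e-08). OsPht1;4, a phosphate uptake transporter, went from 561.9 and 632.7 to 1503.5 and 1502.7 at 6 h, a rise of 1.33 ± 0.10 (adjusted p = 7.87e-07). It passed at 1 of the 4 times. A transporter that went the other way was OsPht1;1. It fell by -0.55 ± 0.06 at 48 h (adjusted p = 2.47e-05) and by -0.47 ± 0.06 at 72 h (adjusted p = 6.66e-05). Among transporters that rose, OsPht1;8 did so by 0.68, 0.54 and 0.37 at 6, 48 and 72 h, each ± 0.13. Its 72 h rise held under 8 alternatives, lost its call under 10 and changed sign under 1, and its 48 h rise lost its call under 4. OsPht1;2 rose by 0.57 ± 0.08 at 72 h (adjusted p = 1.84e-04). Another SPX gene, OsSPX2, was 0.72 ± 0.23 above the control after 24 h (adjusted p = 0.0253), and leaving out control replicate 2 ended that call (0.42, adjusted p = 0.235), as did leaving out the first of the 24 h arrays (0.45, adjusted p = 0.211). No member of this list passed as a rise at all 4 times. OsPHR2, the MYB factor that activates phosphate starvation genes, was changed at all 4 times, with a fall at 6 h (-0.62 ± 0.06) and rises after it. OsPHR3, a factor of the same family, was below the control by -1.75 ± 0.10 after 6 h and by -0.52 ± 0.10 after 24 h.

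The genes most like each member were the 5 with the highest Pearson r of log2 signal over the 10 arrays, among 2765 tested probe sets of genes with a published name. The arrays share group and scaling, and r is given as a description. A course like that of the member follows from this choice and is no separate result. For OsMGD1 these were SAM2, an S-adenosylmethionine synthetase (r = 0.981), rps20 (r = 0.979), the trehalose-6-phosphate phosphatase gene OsTPP2 (r = 0.978), the nicotianamine synthase gene OsNAS1 (r = 0.974) and the actin-binding Villin-2 (r = 0.970). All 5 were highest at 24 h and lowest, among the 4 times, at 72 h. Their changes at 24 h ran from 0.59 for Villin-2 to 2.09 for OsTPP2. OsNAS1, for one, was 0.93 above the control after 6 h, 0.97 and 1.03 above it on the 24 h arrays, and 0.64 and 0.42 above it after 48 and 72 h.

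For OsMGD3 the most alike were the protein kinase gene MPK11 (r = 0.973), the transcription factor OsMYB2 (r = 0.971), the arginine methyltransferase PRMT1 (r = 0.971), the zinc finger gene OsC3H35 (r = 0.968) and the alcohol dehydrogenase Adh2 (r = 0.964). All 5 were below the control at 24 h, by -0.80 for MPK11 to -1.96 for Adh2, and above it at 48 and 72 h. Adh2 was also above the control at 6 h, by 1.20, where OsMGD3 was at 0.10. For OsMGD2 the highest r were 0.701 to 0.759, for OsG1L6, OsCIPK32, OsMSH5, BC1L6 and OsCKX5, and they rest on signals in which arrays of the same group differ widely. With quantile normalization 3 of the 5 genes named for OsMGD1, 3 of those for OsMGD2 and 2 of those for OsMGD3 were still among the highest 5. With 1 array left out, 3 to 4 of the 5 were kept for OsMGD1 and for OsMGD3. For OsMGD2 the number kept ran from 1 to 5, with 1 kept without low Pi 6 h replicate 2 or without low Pi 24 h replicate 2.

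**Figure D5:**
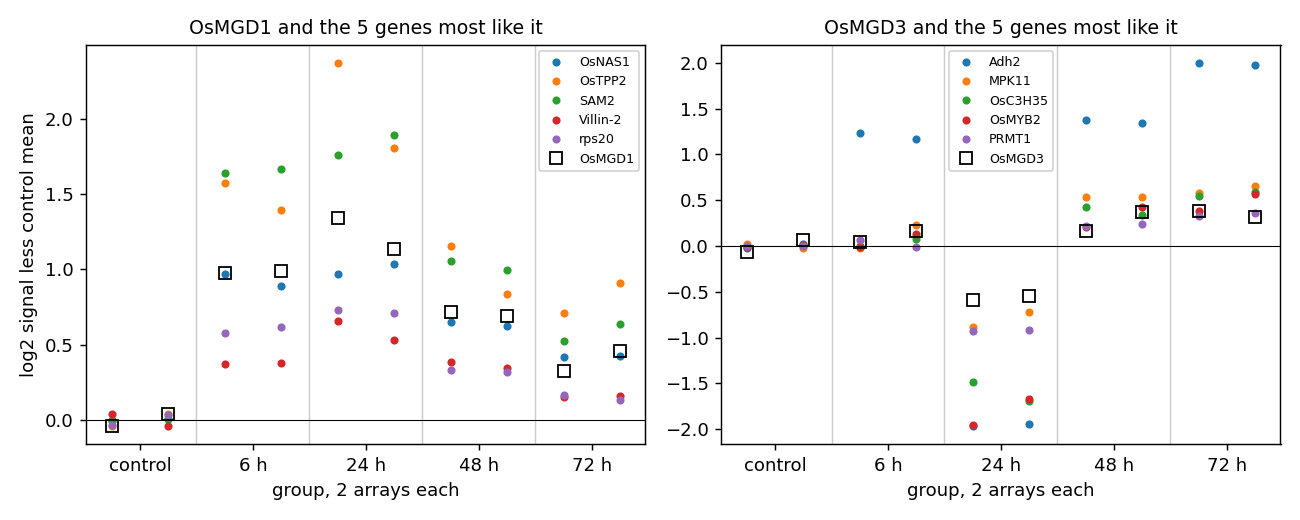
Log2 signal less the control mean on each of the 10 arrays for OsMGD1 (left) and OsMGD3 (right), drawn as open squares, with the 5 genes most like each as points. The genes were chosen for their likeness on these same arrays. The OsMGD1 set is above 0 on all 8 low-phosphate arrays, and the OsMGD3 set dips below 0 on both 24 h arrays and lies above 0 at 48 and 72 h.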

How the data were processed

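The authors deposited a linear MAS5 signal, an intensity, for every probe set on every array, made with GCOS and MAS5 per the submitters' processing notes, which give no versions. Each of the 10 arrays had the same mean, 500.1, once 2% of its values were trimmed from either end, and that scaling was kept. Detection calls were not used here. Of 57381 probe sets 123 were Affymetrix controls. The platform annotation lists 1 gene for 22436 of the others, several for 95 and none for 34727, and names came from a RefSeq gene table. Sequences were not used here.

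The log2 of each signal was used without an offset. Probe sets above the 40th percentile of mean log2 signal (4.58, a signal of 23.9) were tested, 34355 in all. One mean per group was fitted to all 10 arrays with limma 3.58.1 (R 4.3.3), and eBayes was run with a trend on intensity, giving 5 residual and 6.5 prior degrees of freedom. Tests were two-sided, adjusted with Benjamini-Hochberg, and the steps were tested on simulated data. Named genes are the 3 members, up to 4 genes of each list and time with the largest change past the threshold, and the 5 most alike. The values of OsPHR2 after 6 h, and values that did not pass, stand outside that rule and were chosen after they were seen. A list gene is represented by its probe set with the highest mean. The gene for actin, which shares the name of the acyltransferase OsACT1, was left out of the lipid list. The replicate number did not pair arrays: over 10 pairs of groups the correlation of deviations ran from -0.01 to 0.02. The members and lists were chosen with earlier results of these data known. The number of arrays, 2 in each group, limits the precision. The SE and p-values from limma set a change against the spread within groups, pooled over all 5 groups and moderated across probe sets. They do not measure the spread of a single pair of arrays.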

Additional observations from a re-analysis of the deposited data

How the results depend on the processing

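The number of probe sets called stayed within 1.5 times the reported count under every alternative run, as did, in sign and side of 0.05, the changes of OsMGD1 at 6, 24 and 48 h and of OsMGD3 at 6 and 24 h. The replicate block, which is not supported by the labels, changed no call of a member (OsMGD3 at 48 h, 0.27, adjusted p = 0.0428). Centring on the median of all probe sets gave -0.11 for OsMGD1 and -0.15 for OsMGD3 at 72 h. OsMGD3 at 48 h lost its call with no filter (0.27, adjusted p = 0.0762), no intensity trend (0.27, 0.105), only the 2 groups compared (0.27, 0.0630), the 72 h group left out (0.27, 0.0590), quantile normalization (0.17), centring on all probe sets (0.28) and centring on those tested (0.094), and ranged from 0.17 to 0.37 with 1 array left out, ending without either control, either 6 h, either 72 h or the second 48 h array. OsMGD3 at 72 h ranged from 0.28 to 0.41 with 1 array left out, and its mean over the 4 times from -0.026 to 0.10, with -0.0077 for quantile normalization, -0.12 for centring on all and -0.040 on those tested. Its step from 48 to 72 h became -0.44 with centring on all (adjusted p = 0.00325), with -0.024 to 0.18 over left-out arrays.

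The OsMGD1 step from 48 to 72 h ended without a trend (-0.31) and with centring on those tested (-0.17), was -0.83 with centring on all (adjusted p = 1.77e-05), and ran from -0.38 to -0.25 with 1 array left out, ending without either 48 h array or the first 72 h array. The step from 6 to 48 h ended with centring on all (-0.23) and without a trend (-0.28), and ran from -0.29 to -0.26, ending without either 6 h or 48 h array. The step from 6 to 24 h ended with centring on all (0.19) and without a trend (0.26), and ran from 0.16 to 0.36, ending without either 6 h or the first 24 h array.

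OsMGD2 never passed, and its sign turned easily. With 1 array left out its changes ran from -0.83 to 0.40 at 6 h, -0.42 to 0.34 at 24 h, -0.15 to 0.36 at 48 h, -0.14 to 0.73 at 72 h and -0.12 to 0.19 over the 4 times, its step from 6 to 24 h from -0.44 to 0.79 and that from 48 to 72 h from -0.24 to 0.63. Quantile normalization and centring on all gave -0.23 and -0.20 at 72 h, -0.13 and -0.12 over the 4 times and -0.39 and -0.32 for the step from 48 to 72 h, and centring on those tested gave -0.072 at 48 h and -0.040 over the 4 times. The filter at the 60th percentile left OsMGD2 out. The difference of OsMGD2 less OsMGD3 was 0.0048 with log2(signal + 16) and ran from -0.13 to 0.14 with 1 array left out. Other genes that changed sign were CAB2R at 6 h (0.20) and 48 h (0.053) and RBCS at 48 h (0.13) with quantile normalization, and, with centring on all, at 72 h OsRCA (-0.067), OsPHO1;2 (-0.052), OsPht1;8 (-0.13) and OsAMT1;2 (-0.18). The cause was not tested in any of these.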
